A study of Gallus gallus with 4 samples.

Results

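The genes described here are the collagens and the cartilage matrix genes of the chicken trachea. A gene was a member if its symbol was that of a collagen chain (COL, a number, A, a number) or was ACAN, COMP, MATN1, MATN3, HAPLN1, CHAD, EPYC or CILP, and if its mean over the 4 libraries was at least 1 CPM (read counts scaled to the size of the library). Of 26296 genes in the table, 49 carried such a name and 48 reached that mean. COL25A1 at 1.55, COL10A1 at 1.74 and COL19A1 at 3.23 mean CPM lay just inside, and COL4A4 at 0.531 mean CPM lay outside, with 8 and 20 reads after exposure against 2 and 13 in control replicates 1 and 2. The members were divided by role into 7 cartilage collagens, 8 other cartilage matrix genes, 6 fibrillar collagens, 9 collagens of the basement membrane zone, 11 beaded filament and FACIT collagens and 7 transmembrane and other collagens.

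RNA sequencing was done on trachea of 42-day-old chickens. The exposed group lived in a chamber into which hydrogen sulfide was fed to hold 3.5 to 4.5 mg/kg in weeks 0 to 3 and 19.5 to 20.5 mg/kg in weeks 4 to 6, and the control group in a chamber with no added gas. Each group has 2 libraries, and the labels give neither strain nor genotype nor the number of birds behind a library. Gas and chamber cannot be told apart, and all p-values measure only the spread between these libraries, which may be technical.

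Collagens are proteins of 3 chains wound into a helix. Fibrillar collagens form the tensile fibres of connective tissue, type IV collagen forms the sheet under epithelia and around vessels and muscle fibres, and FACIT collagens (fibril-associated, with an interrupted helix) sit on the surface of fibres. The tracheal rings, which are complete circles in birds, are hyaline cartilage. Their matrix is a network of type II, IX and XI collagen filled with aggrecan, a proteoglycan that binds water, and with matrilins and other linking proteins. All of these are made by chondrocytes under the transcription factor SOX9.

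Exposed replicates 1 and 2 held 22283320 and 22706119 counted reads, and control replicates 1 and 2 held 17400644 and 16899066. Levels below are TMM-normalised CPM, that is, counts scaled to a common effective library size. The control libraries stood apart from each other in cartilage genes, so the median fold change of each class is given below with both controls and with each alone. Reads of Z-linked genes marked exposed replicate 2 and control replicate 1 as alike (median log2 deviation 0.28 and 0.27 over 619 genes) and exposed replicate 1 and control replicate 2 as alike (-0.24 and -0.28). The cartilage genes did not follow this split: from low to high, the order of their summed level was control replicate 1, exposed replicate 1, exposed replicate 2 and control replicate 2. Still, the controls lay on opposite sides of the Z-linked split, as did the exposed libraries. The part of that split in the gap between the controls was not tested.

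The 15 cartilage genes together made up 1.997% of all reads in exposed replicate 1 (95% Wilson interval 1.991 to 2.003), 2.99% in exposed replicate 2 (2.98 to 2.99), 0.719% in control replicate 1 (0.715 to 0.723) and 3.42% in control replicate 2 (3.42 to 3.43). These intervals cover counting error only. Control replicate 1 was thus the lowest library and control replicate 2 the highest, with both exposed libraries between them. In bulk tissue, fewer chondrocytes in the piece and less RNA per chondrocyte cannot be told apart.

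COL2A1, the single chain of type II collagen and the main fibre of cartilage, stood at 7465 and 11731 CPM in exposed replicates 1 and 2 and at 2793 and 12943 CPM in control replicates 1 and 2. The exposed values lay between the controls, which differed 4.63-fold. COL2A1 alone took 0.294% of the reads of control replicate 1 (95% Wilson interval 0.292 to 0.297) and 1.30% of those of control replicate 2 (1.29 to 1.30). The exposed mean was 9598 ± 3017 CPM and the control mean 7868 ± 7177 CPM (SD, n = 2 each). Its log2 fold change, exposed over control, was 0.29 (SE 0.90, edgeR adjusted p = 0.999).

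The chains of type IX collagen, which coats the type II fibre, were also lowest in control replicate 1. COL9A1 stood at 3453 and 5272 CPM in the exposed libraries and at 1017 and 5112 CPM in the controls. COL9A3 stood at 1154 and 2084 CPM against 353 and 2002 CPM. For both genes exposed replicate 2 was slightly above control replicate 2. COL9A2, the remaining chain of the trimer, stood at 555 and 762 CPM against 125 and 876 CPM. The controls differed 5.03-fold in COL9A1, 5.68-fold in COL9A3 and 7.01-fold in COL9A2.

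COL11A1, a chain of the type XI collagen at the core of the cartilage fibre, stood at 799 and 1477 CPM in the exposed libraries and at 250 and 1510 CPM in the controls. COL27A1, a fibrillar collagen of cartilage, stood at 164 and 282 CPM against 54.1 and 314 CPM. In both genes the exposed libraries lay between the controls. COL10A1, which marks hypertrophic chondrocytes, went the other way, with 27 and 29 reads after exposure against 59 and 18 reads in control replicates 1 and 2. At 1.25 and 1.31 CPM against 3.22 and 1.06 CPM it was low in every library, and control replicate 1 was its highest.

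Among the other cartilage matrix genes, the gap between the controls ranged from 1.23-fold to 42.6-fold. ACAN, which encodes aggrecan, stood at 2545 and 3962 CPM in the exposed libraries and at 741 and 5041 CPM in the controls. MATN1, whose product matrilin links collagen and proteoglycan and is abundant in tracheal cartilage, stood at 2001 and 2214 CPM against 177 and 2951 CPM. For both genes the exposed libraries fell between the controls, and for MATN1 they were close to each other while the controls differed 16.6-fold.

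MATN3, another matrilin, stood at 396 and 480 CPM in the exposed libraries and at 51.9 and 622 CPM in the controls. EPYC, which encodes epiphycan, a small proteoglycan of growth cartilage, stood at 171 and 149 CPM against 6.33 and 270 CPM. EPYC had the widest gap between the controls of the 48 members, with 116 reads in control replicate 1 and 4570 in control replicate 2. CHAD, a leucine-rich protein that chondrocytes attach to, stood at 710 and 903 CPM against 240 and 1194 CPM. HAPLN1, the link protein that ties aggrecan to hyaluronan and the only Z-linked member, stood at 43.7 and 48.0 CPM against 12.9 and 63.3 CPM. In all 4 genes both exposed libraries lay between the controls.

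COMP and CILP did not share the wide gap. COMP, a matrix protein of cartilage that tendon also makes, stood at 993 and 1183 CPM in the exposed libraries and at 904 and 1115 CPM in the controls. CILP, a protein of the middle layer of articular cartilage, stood at 158 and 134 CPM against 91.9 and 133 CPM. The controls differed 1.23-fold in COMP and 1.45-fold in CILP. CILP was the only cartilage member whose groups did not overlap, with exposed replicate 2 just above control replicate 2. Its log2 fold change was 0.37 (SE 0.24, edgeR adjusted p = 0.999) and ranged from 0.13 to 0.65 when 1 library was left out.

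**Figure D1:**
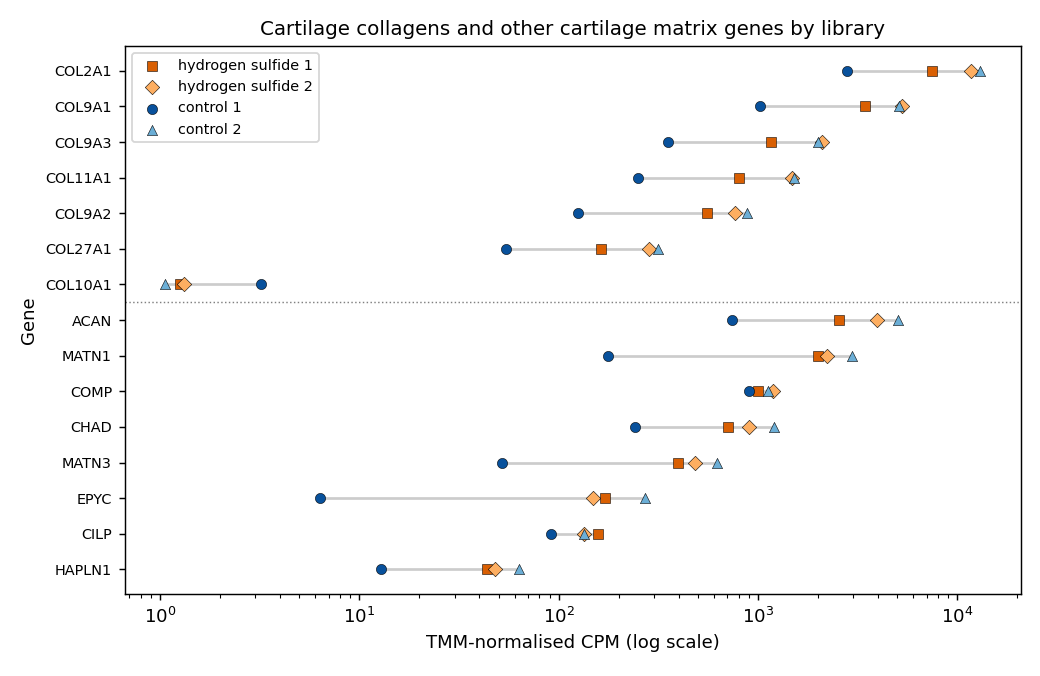
Level of the 15 cartilage members in each library, as TMM-normalised CPM on a log axis; squares and diamonds are the exposed libraries, circles and triangles control replicates 1 and 2, and grey lines join the lowest and highest library. Control replicate 1 is the lowest of the 4 libraries for 14 of the 15 genes, from COL2A1 at 2793 CPM to EPYC at 6.33 CPM, and the highest for COL10A1.

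Read against COL2A1 within each library, the cartilage genes differed in how steady their ratio was. Per 1000 COL2A1 reads, COL9A1 had 463, 449, 364 and 395 reads in exposed replicates 1 and 2 and control replicates 1 and 2. HAPLN1 had 5.86, 4.09, 4.61 and 4.89. These ratios stayed close together while COL2A1 itself differed 4.63-fold between the controls. MATN1 had 268, 189, 63.5 and 228 reads, and MATN3 had 53.1, 41.0, 18.6 and 48.0. EPYC had 22.9, 12.7, 2.26 and 20.8 reads. In control replicate 1 the matrilins and EPYC were thus low even relative to COL2A1. To a lesser extent, ACAN (341, 338, 265 and 390) and COL9A2 (74.4, 65.0, 44.7 and 67.7) were also lowest there. So were COL9A3 (155, 178, 126 and 155), COL11A1 (107, 126, 89.5 and 117), COL27A1 (21.9, 24.0, 19.4 and 24.2) and COL9A1. CHAD (95.1, 77.0, 86.1 and 92.3) and HAPLN1 were lowest in exposed replicate 2. COMP had 133, 101, 324 and 86.1 reads per 1000 COL2A1 reads, and CILP had 21.1, 11.4, 32.9 and 10.3. Both were highest in control replicate 1, as was COL10A1 on few reads (0.168, 0.112, 1.15 and 0.0821).

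Over the 15 cartilage members, 12 were at least 2-fold lower in control replicate 1 than in control replicate 2, against 5.25% of all 16545 genes tested. The median log2 ratio of control replicate 1 to control replicate 2 was -2.50 for the cartilage collagens and -2.54 for the other cartilage matrix genes, against 0.0083 for all genes tested. The difference between the exposed libraries was smaller. Exposed replicate 1 was below exposed replicate 2 in 13 of the 15, with median log2 ratios of -0.65 and -0.20, and 0 of the 15 differed 2-fold in that direction, against 2.47% of all genes. These are ratios of single libraries and carry no test. The gap between the controls was known when the members were chosen.

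The chains of type III and type I collagen, fibrillar collagens of general connective tissue, had the reverse order of the cartilage genes between the controls. COL3A1, the chain of type III collagen in soft, distensible tissue, stood at 6527 and 6015 CPM in the exposed libraries and at 9025 and 4056 CPM in the controls. COL1A1 and COL1A2 encode the chains of type I collagen, the main fibre of tendon, bone and dermis. COL1A1 stood at 2593 and 2803 CPM against 4457 and 2277 CPM. COL1A2 stood at 3824 and 4375 CPM against 4917 and 3383 CPM. In all 3 genes control replicate 1 was the highest library and control replicate 2 the lowest.

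Type V collagen, which starts and thins type I fibres, was even between the controls. COL5A1 stood at 1050 and 1172 CPM in the exposed libraries and at 930 and 993 CPM in the controls. COL5A2 stood at 854 and 887 CPM against 718 and 733 CPM. Both genes were higher in each exposed library than in each control, by 0.21 (SE 0.23) and 0.26 (SE 0.20) on the log2 scale, and edgeR gave both an adjusted p of 0.999. COL24A1, a minor fibrillar chain, stood at 35.0 and 39.3 CPM against 15.9 and 41.1 CPM, an order like that of the cartilage genes. The number of COL2A1 reads per COL1A1 read was 2.88 and 4.19 after exposure, against 0.627 and 5.68 in control replicates 1 and 2.

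The 9 collagens of the basement membrane zone did not share a single order of libraries. In 6 of them, COL4A1, COL4A2, COL4A5, COL4A6, COL15A1 and COL18A1, control replicate 2 was the lowest library and the log2 ratio between the controls lay between 0.61 and 0.79. COL4A1, a chain of the general type IV collagen network, stood at 743 and 527 CPM in the exposed libraries and at 676 and 442 CPM in the controls. Its partner COL4A2 stood at 261 and 208 CPM against 256 and 150 CPM. COL4A6, a chain of basement membranes under epithelia and around smooth muscle, stood at 163 and 115 CPM against 139 and 88.5 CPM. Replicate 1 was above replicate 2 in both groups in each of these. COL15A1, which links basement membrane to the fibres below, stood at 409 and 319 CPM against 399 and 245 CPM.

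The collagens that anchor epithelial cells did not share that order. COL17A1, a transmembrane collagen of hemidesmosomes in basal epithelial cells, stood at 83.9 and 113 CPM in the exposed libraries and at 71.0 and 75.5 CPM in the controls. It was higher in both exposed libraries and had the smallest p of the 48 members (log2 fold change 0.42, SE 0.20, edgeR adjusted p = 0.971). That value ranged from 0.20 to 0.62 when 1 library was left out. COL7A1, which forms the anchoring fibrils below hemidesmosomes, stood at 10.2 and 13.0 CPM against 13.6 and 13.7 CPM. It was the only member lower in both exposed libraries than in both controls (log2 fold change -0.23, SE 0.23, edgeR adjusted p = 0.999), and ranged from -0.42 to -0.070 when 1 library was left out. COL4A3, a type IV chain of more restricted tissues, stood at 4.77 and 7.06 CPM against 2.62 and 5.19 CPM, with overlapping groups.

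Type VI collagen forms beaded filaments around cells in most connective tissue. COL6A1 stood at 1059 and 1000.2 CPM in the exposed libraries and at 1141 and 875 CPM in the controls. COL6A2 stood at 1264 and 1248 CPM against 1549 and 1043 CPM. COL6A3 stood at 1495 and 1676 CPM against 1664 and 1179 CPM. Control replicate 2 was the lowest library for all 3 chains. COL6A6, an alternative chain, stood at 21.1 and 29.0 CPM against 44.2 and 13.7 CPM.

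The FACIT collagens were divided. COL12A1, which binds the surface of type I fibres in dense connective tissue, stood at 1856 and 3323 CPM in the exposed libraries and at 1229 and 2418 CPM in the controls. COL16A1 stood at 230 and 405 CPM against 134 and 322 CPM. Both were lowest in control replicate 1 and highest in exposed replicate 2. COL14A1 was nearly even, at 176 and 169 CPM against 198 and 172 CPM. COL22A1, known from the junction of muscle and tendon, stood at 9.77 and 7.42 CPM against 3.16 and 8.56 CPM. COL20A1 stood at 51.4 and 28.2 CPM against 54.0 and 18.9 CPM, and COL19A1 at 3.98 and 2.53 CPM against 4.69 and 1.65 CPM. In COL20A1 and COL19A1 replicate 1 was above replicate 2 in both groups. COL21A1 ranged from 70.0 to 105 CPM, with the controls at 78.3 and 81.7 CPM.

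Of the remaining collagens, COL8A1 and COL8A2 encode the short chains of type VIII collagen, which forms sheet-like networks. COL8A1 stood at 839 and 1200.0 CPM in the exposed libraries and at 523 and 833 CPM in the controls. COL8A2 stood at 213 and 276 CPM against 109 and 248 CPM. Both were lowest in control replicate 1, and COL8A1 was higher in each exposed library than in each control (log2 fold change 0.59, SE 0.35, edgeR adjusted p = 0.999), with a range of 0.30 to 0.95 when 1 library was left out. COL26A1 stood at 59.7 and 82.5 CPM against 30.4 and 67.0 CPM, also lowest in control replicate 1.

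COL13A1, a transmembrane collagen found at cell adhesions and at the neuromuscular junction, stood at 52.2 and 47.5 CPM in the exposed libraries and at 46.8 and 32.8 CPM in the controls. Control replicate 1 was above control replicate 2, so COL13A1 did not share the order of COL2A1. Its groups were only just apart, with exposed replicate 2 slightly above control replicate 1 (log2 fold change 0.32, SE 0.23, edgeR adjusted p = 0.999). That log2 fold change ranged from 0.078 to 0.61 when 1 library was left out. COL28A1, known in mouse from peripheral nerve, stood at 84.9 and 43.9 CPM against 92.4 and 40.9 CPM, with replicate 1 above replicate 2 in both groups. COL23A1 had 63 and 109 reads after exposure and 39 and 159 in control replicates 1 and 2, or 2.92 and 4.93 CPM against 2.13 and 9.38 CPM. COL25A1 lay between 1.36 and 1.77 CPM in all 4 libraries.

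**Figure D2:**
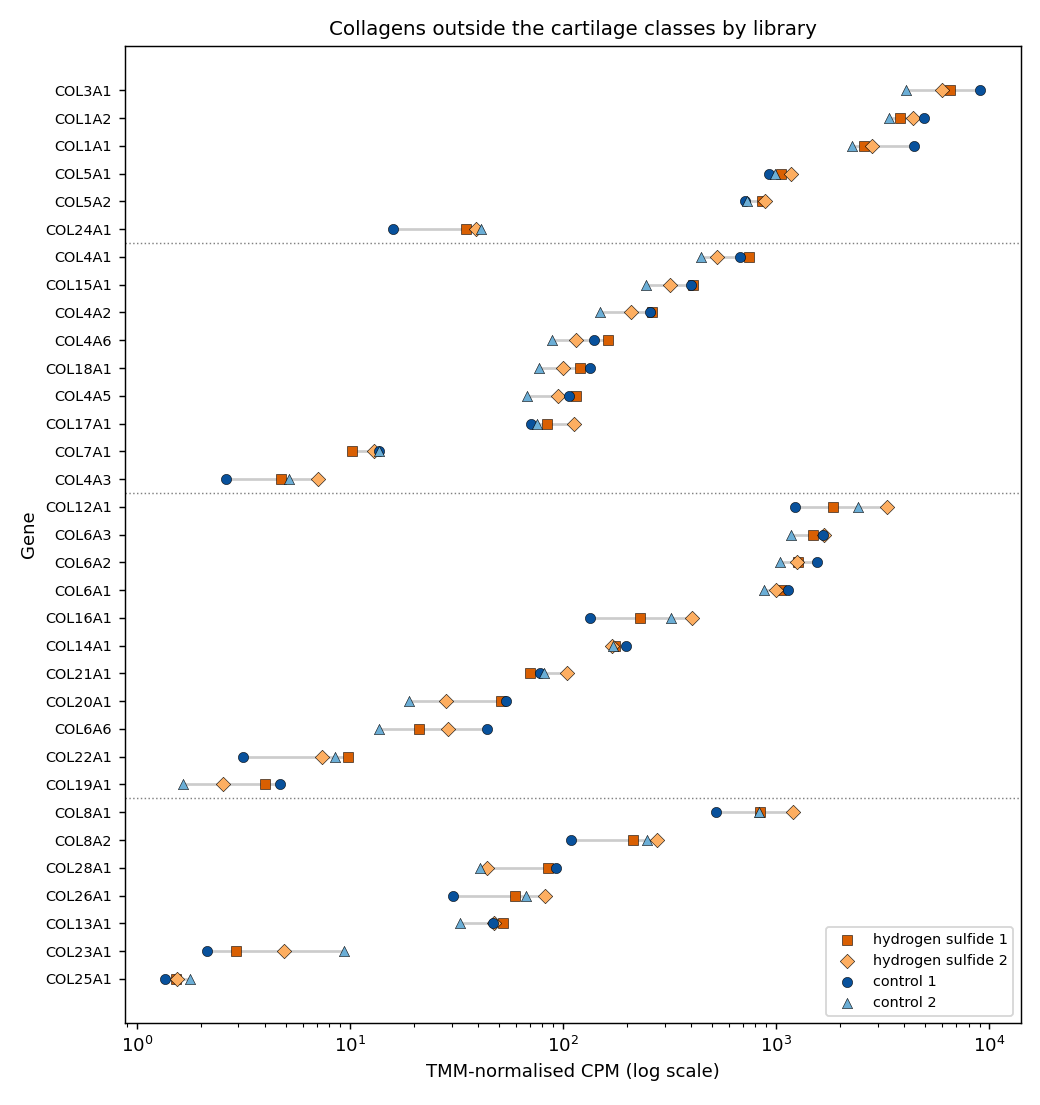
Level of the 33 collagens outside the cartilage classes in each library, as TMM-normalised CPM on a log axis; dotted lines part the fibrillar, basement membrane zone, beaded filament and FACIT, and transmembrane and other collagens. Control replicate 2 is the lowest library for 17 of the 33 genes, among them COL3A1 at 4056 CPM and COL4A1 at 442 CPM, and control replicate 1 for 13, among them COL12A1 at 1229 CPM.

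Among these 33 collagens, 6 were at least 2-fold lower and 5 at least 2-fold higher in control replicate 1 than in control replicate 2, against 5.25% and 6.13% of all genes tested. The median log2 ratio of control replicate 1 to control replicate 2 was 0.25 for the fibrillar class, 0.65 for the basement membrane zone, 0.38 for the beaded filament and FACIT class and -0.67 for the transmembrane and other class. Between the exposed libraries, 0 of the 48 members differed 2-fold in either direction, against 2.47% lower and 4.87% higher among all genes tested.

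**Figure D3:**
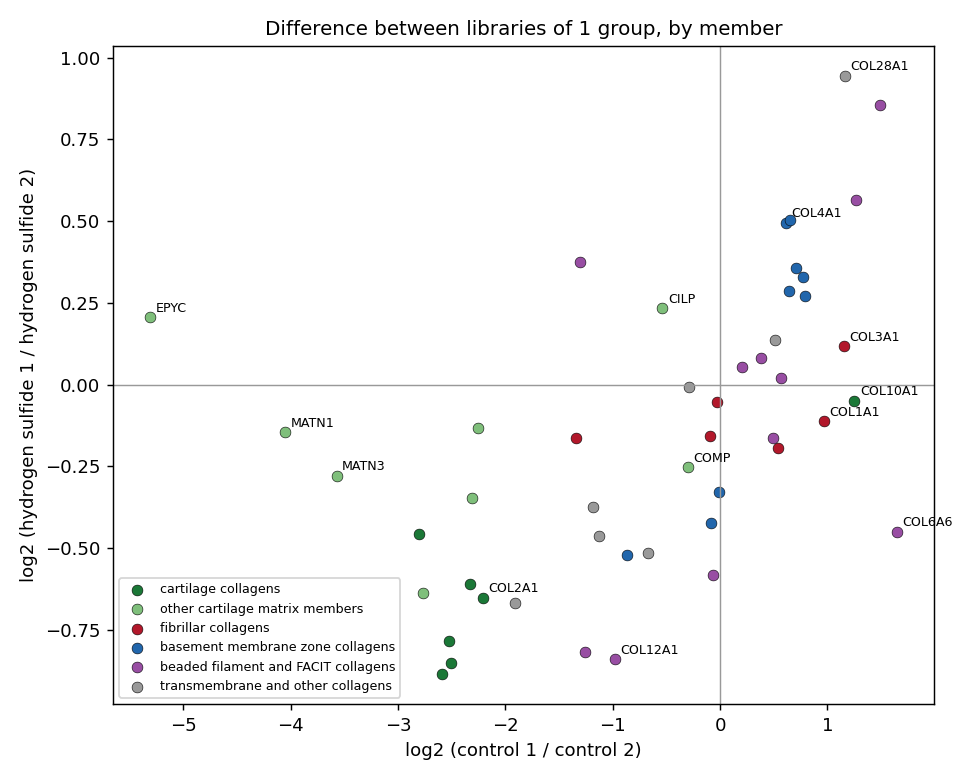
Log2 ratio of control replicate 1 to control replicate 2 (horizontal) and of exposed replicate 1 to exposed replicate 2 (vertical) for the 48 members, coloured by class; the axes have different ranges. Most cartilage genes lie far to the left, down to -5.31 for EPYC, with vertical values from -0.89 for COL11A1 to 0.23 for CILP over the 15 genes, and 6 of the 9 collagens of the basement membrane zone lie above 0 on both axes.

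The comparison of exposed with control trachea asks which genes differed between the groups, in which gas and chamber cannot be told apart. For the members, edgeR's quasi-likelihood test called 0 of 48 at an adjusted p under 0.05, as it called 0 of the 16545 genes tested (0%). An unadjusted p under 0.05 was reached by 0 of the 48, against 2.12% of all genes in the higher and 3.48% in the lower direction. DESeq2 called 0 of the 48 as well, against 0.798% of all genes, and limma-voom called 0 of the 48 and 0 of all genes tested. The smallest adjusted p among the members was 0.971 in the edgeR fit. For 1 gene in this design, the smallest p that an exact two-sided permutation test allows is 0.333.

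Most members had a fold change above 0, with few groups apart. Of the 48, 37 had a log2 fold change above 0 and 11 below, against 8541 and 8004 of the 16545 genes tested. The exposed mean was above control replicate 1 for 29 members and above control replicate 2 for 29. Of all genes tested, 8319 and 8669 were. For the 15 cartilage members these counts were 14 and 2. The groups did not overlap for 6 higher members (CILP, COL5A1, COL5A2, COL17A1, COL8A1 and COL13A1) and 1 lower member (COL7A1), against 15.3% and 17.2% of all genes tested. Scaled by library totals, 3 members were higher and 2 lower without overlap, and the groups of CILP, COL8A1 and COL13A1 overlapped. The share of all genes is not given for that scaling, so these counts cannot be read against it. The median log2 fold change of all genes tested was -0.071 with library totals, against 0.011 with TMM. Both exposed libraries lay between the controls for 24 of the 48 members and for 11 of the 15 cartilage members, against 21.8% of all genes tested. Control replicate 2 was the highest library for 10 of those 15, against 26.3% of all genes tested, and the lowest for 17 of the 33 other collagens, against 27.7%.

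The median log2 fold change was 0.37 for the cartilage collagens, 0.24 for the other cartilage matrix genes, 0.10 for the fibrillar class, 0.21 for the basement membrane zone, 0.12 for the beaded filament and FACIT class and 0.32 for the transmembrane and other class, against 0.011 for all genes tested. The first 2 medians were 0.81 and 0.70 with limma-voom and 0.82 and 0.69 with the replicate number as a block, a pairing that the labels do not give. That pairing joins libraries from opposite sides of the Z-linked split. The sign of the cartilage values turned with the control used. With control replicate 1 as the only control, the medians of the cartilage collagens and the other cartilage matrix genes were 2.09 and 1.97. With control replicate 2 as the only control, they were -0.40 and -0.49. The cartilage collagen median was 0.62 without exposed replicate 1 and -0.076 without exposed replicate 2.

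The medians of the other classes moved less but also turned. The fibrillar median was -0.014 with control replicate 1 alone and 0.25 with control replicate 2 alone, and 0.18 and 0.063 without exposed replicates 1 and 2. That of the basement membrane zone was -0.10 and 0.53 with control replicates 1 and 2 alone, and 0.017 and 0.35 without exposed replicates 1 and 2. That of the beaded filament and FACIT class was -0.16 and 0.24 with control replicates 1 and 2 alone, and 0.0027 and 0.025 without exposed replicates 1 and 2. That of the transmembrane and other class stayed above 0, at 0.87 and 0.094 with control replicates 1 and 2 alone.

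With control replicate 1 alone, 19 members had an unadjusted edgeR p under 0.05 in the higher direction and 2, COL10A1 and COL6A6, in the lower direction. Of all genes tested in that fit, 4.44% and 3.26% did. Most of the higher members were cartilage genes, which were low in control replicate 1 to begin with. The members were chosen with the gap between the controls known, so counts against 1 control restate it and give no separate support. With control replicate 2 alone, the counts were 3 higher (COL4A2, COL4A5 and COL13A1) and 1 lower (EPYC), against 3.49% and 3.69% of all genes. Without exposed replicate 1 they were 0 and 0, against 1.36% and 2.56% of all genes, and without exposed replicate 2 they were also 0 and 0, against 2% and 1.3%. With the replicate number as a block they were 2 higher (COL16A1 and COL26A1) and 0 lower, against 3.03% and 3.21%. No member passed after adjustment in any of these edgeR fits, in which the lone control is assumed to vary like the exposed group.

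**Figure D4:**
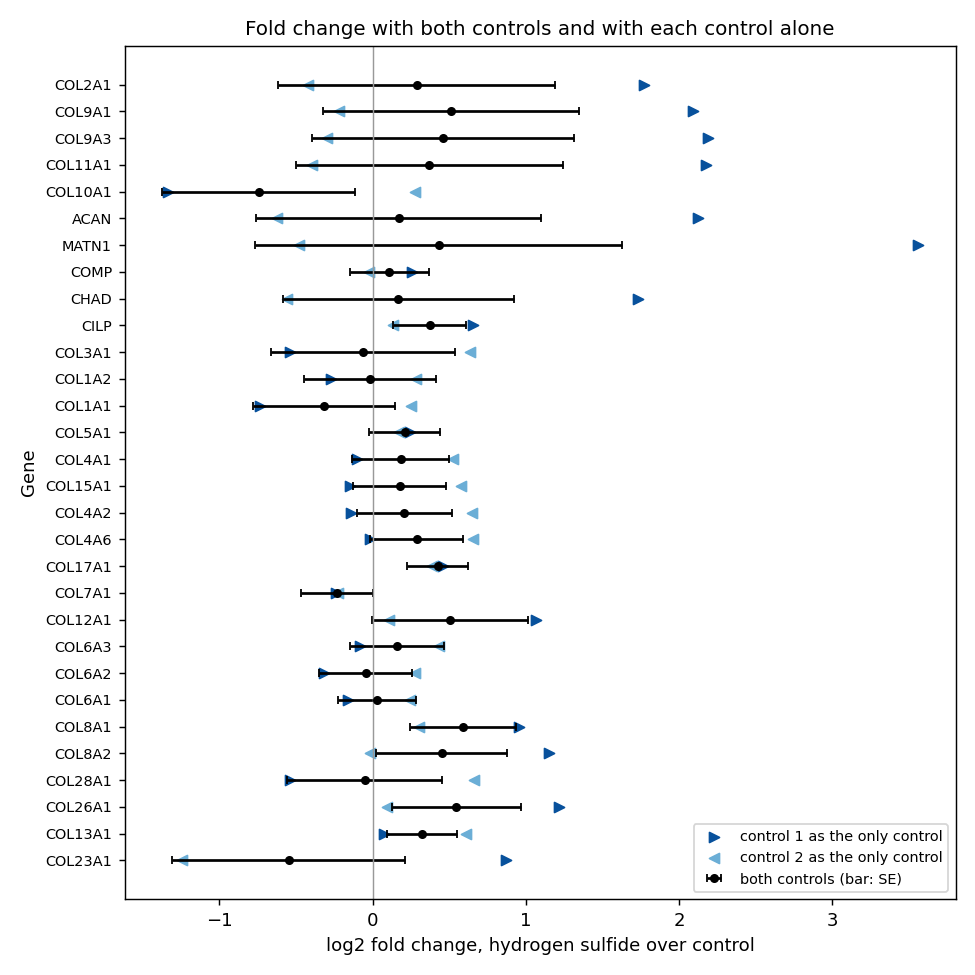
Log2 fold change, exposed over control, of 30 members from the edgeR fit with both controls (black points, bars are SE) and with control replicate 1 or control replicate 2 as the only control (dark and light triangles). For COL2A1 the value is 0.29 with both controls, 1.77 with control replicate 1 alone and -0.42 with control replicate 2 alone, while COL17A1 is 0.46 and 0.39, COL7A1 -0.24 and -0.23 and COL5A1 0.25 and 0.17 with control replicates 1 and 2 alone.

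Most other genes of cartilage were also lower in control replicate 1 than in control replicate 2. Of 22 tested genes of further cartilage matrix, 14 were at least 2-fold lower in control replicate 1 than in control replicate 2, against 5.25% of all genes. In the other direction 2 were at least 2-fold higher, against 6.13% of all genes. MGP, an inhibitor of cartilage calcification and the gene of highest level in that list, stood at 1167 and 1205 CPM in the exposed libraries and at 929 and 1488 CPM in the controls. LECT1, which encodes chondromodulin, an inhibitor of vessel growth in cartilage, stood at 661 and 1399 CPM against 164 and 1247 CPM. CYTL1, a secreted protein of chondrocytes, stood at 459 and 792 CPM against 54.0 and 618 CPM. In the exposed against control test 0 of the 22 passed, with a median log2 fold change of 0.23. That sign turned with the control used. The median log2 ratio of the exposed mean was 0.94 to control replicate 1 and -0.19 to control replicate 2.

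Among 18 tested regulators of cartilage, 16 were lower in control replicate 1 than in control replicate 2, against 49.1% of all genes tested, and 7 of them were at least 2-fold lower, against 5.25%. FGFR3, a receptor that restrains chondrocyte growth, stood at 336 and 399 CPM in the exposed libraries and at 242 and 598 CPM in the controls. SOX9, named after its values were seen because it drives COL2A1, stood at 61.6 and 102 CPM against 26.4 and 96.0 CPM. SOX9 thus had the order of COL9A1, with exposed replicate 2 highest and control replicate 1 lowest. The list had a median log2 fold change of 0.12 between the groups, and 0 of 18 passed the edgeR test after adjustment. Its sign turned with the control: the median log2 ratio of the exposed mean was 0.62 to control replicate 1 and -0.20 to control replicate 2. RUNX3, named after its values were seen, was the 1 regulator with an unadjusted p under 0.05, in the lower direction, against 3.48% of all genes.

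Genes of collagen synthesis, among them enzymes, chaperones and secretion factors, were lowest in control replicate 1 for 26 of 32 tested, against 28.7% of all genes. SERPINH1, the chaperone of collagen folding, stood at 960 and 1250 CPM in the exposed libraries and at 625 and 1032 CPM in the controls. CREB3L2, next in level, stood at 614 and 621 CPM against 611 and 936 CPM. PLOD2, which hydroxylates lysines for cross-links, stood at 519 and 810 CPM against 228 and 826 CPM. Of the 32 genes, 7 were higher in both exposed libraries than in both controls and 0 were lower, against 15.3% and 17.2% of all genes. The median log2 fold change was 0.18, and 0 of 32 passed after adjustment. Against control replicate 1 alone the median log2 ratio of the exposed mean was 0.44, and against control replicate 2 alone it was -0.017. FKBP14, named after its values were seen, was the 1 gene of the list with an unadjusted p under 0.05, in the higher direction, against 2.12% of all genes.

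Genes of matrix breakdown and its inhibitors had no common order between the controls. Of 20 tested, 12 were lower and 8 higher in control replicate 1, against 49.1% lower among all genes. MMP2, a gelatinase and the gene of highest level in that list, stood at 1343 and 1556 CPM in the exposed libraries and at 1215 and 1435 CPM in the controls. Between the groups 15 of the 20 had a log2 fold change above 0, against 8541 of the 16545 genes tested. The median was 0.23, against 0.011 for all genes tested. As log2 ratios of the exposed mean to control replicates 1 and 2 alone, the medians were 0.28 and 0.16. None of the 20 passed the edgeR test after adjustment, and 1 (CTSK, named after its values were seen) had an unadjusted p under 0.05, in the higher direction, against 2.12% of all genes.

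Markers of other tissues in the pieces also differed between libraries. The summed level of 8 skeletal muscle markers was 8630 and 3684 CPM after exposure, against 7758 and 1339 CPM in control replicates 1 and 2. All 8 were at least 2-fold higher in control replicate 1 than in control replicate 2, against 6.13% of all genes tested. Exposed replicate 1 was at least 2-fold above exposed replicate 2 for 6 of the 8, against 4.87%. None of the 8 was at 0 in any library. ACTA1, skeletal muscle actin, stood at 3121 and 1375 CPM against 3451 and 421 CPM. Control replicate 2, the highest library for cartilage, was the lowest for muscle. The 8 smooth muscle markers summed to 666 and 517 CPM against 797 and 408 CPM. Their part in the collagen values was not tested.

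The summed markers of fibroblasts and epithelium differed less. Single markers differed more, with a log2 ratio of control replicate 1 to control replicate 2 of up to 1.58 in fibroblasts and down to -1.82 in epithelium. The 8 fibroblast markers summed to 4912 and 5693 CPM in the exposed libraries and to 4535 and 4932 CPM in the controls. The 8 epithelial markers summed to 1711 and 2086 CPM against 1592 and 1595 CPM. Of these 8, 1 had an unadjusted edgeR p under 0.05, in the lower direction, against 3.48% of all genes tested. The 6 endothelial markers summed to 1253 and 1046 CPM against 1264 and 988 CPM, the order of COL4A2 except that control replicate 1 was just above exposed replicate 1. The 5 Schwann cell markers summed to 144 and 125 CPM against 128 and 106 CPM. The 6 adipocyte markers summed to 343 and 321 CPM against 293 and 205 CPM. The part of these cells in the collagen values was not tested.

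**Figure D5:**
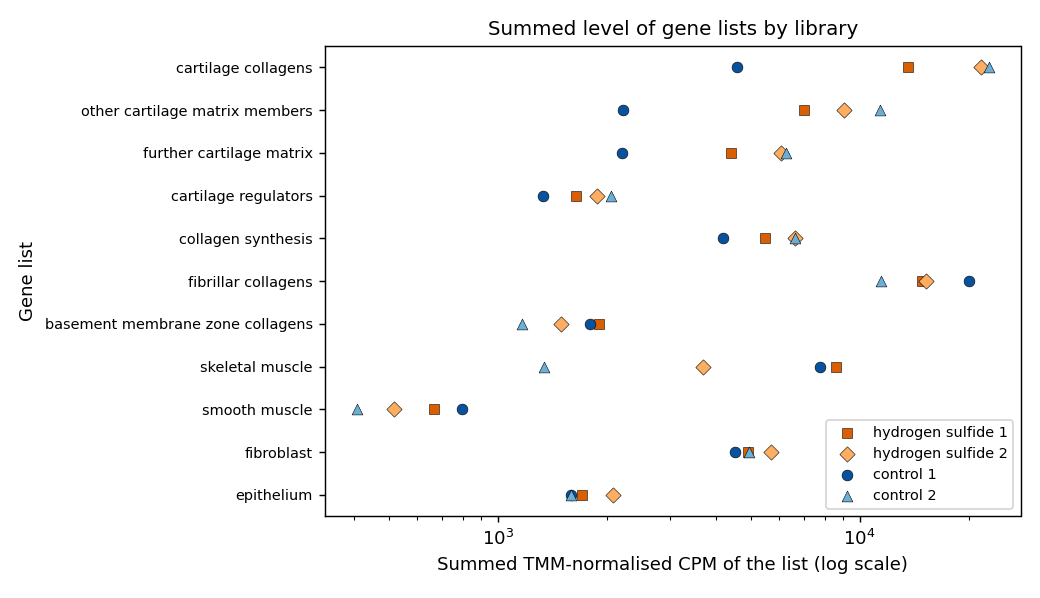
Summed TMM-normalised CPM of 11 gene lists in each library, on a log axis; symbols are as in the plots of single genes. The cartilage lists are lowest in control replicate 1, the cartilage collagens at 4595 CPM, whereas the skeletal muscle markers are lowest in control replicate 2 at 1339 CPM.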

How the data were processed

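The authors deposited raw read counts per gene for 4 libraries, without normalizing them. Alignment was by HISAT2, per the submitters' processing notes. The sources used here do not give the counting program, build, annotation or strand setting, so no coordinates are given and overlapping genes are uncertain. Of 26296 rows, 16640 matched a symbol of the RefSeq table of assembly GRCg7b, all 48 members among them. That table was used for names, neighbours and Z linkage.

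Differences between groups were tested in edgeR 4.0.16 (R 4.3.3) by quasi-likelihood: TMM, filterByExpr by group, no covariate, two-sided, Benjamini-Hochberg adjustment over 16545 genes, threshold 0.05. All 48 members passed the filter. SE is the absolute log2 fold change over the square root of F. Library ratios are log2 with 0.5 CPM added. DESeq2 1.42.0 and limma-voom (3.58.1) were alternatives. The test was also run on simulated counts with the same dispersion for all genes, which does not show how it behaves on these libraries. Counts of every library pair differed by more than sampling noise (chi-square per degree of freedom 64.7 to 112). Values in every library are given for COL2A1, COL13A1, CILP, the 4 members of highest mean in each class and the 3 of smallest p in each direction. Other members were added after their values were seen. Of 168 entries in the further lists, 148 matched, 4 through a synonym; MMP11, a synonym of SMARCB1 in the RefSeq table, was left out. Members and lists were chosen with earlier results of these data known, including the gap between the controls.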

Additional observations from a re-analysis of the deposited data

How the results depend on the processing

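The count of members called after adjustment was 0 in every alternative fit with all 4 libraries. Of all genes tested, DESeq2 called 0.798% and the other fits with 4 libraries called 0. Among the 30 members of the plot of fold changes, 205 values from fits with all 4 libraries kept their direction and 5 turned, each of them near 0. COL1A2 was 0.0060 with limma-voom and 0.0041 with the replicate block. COL3A1 was 0.055 and 0.050 in those fits, and COL6A1 was -0.057 with library totals. With the replicate number as a block, 2 members (COL16A1 and COL26A1) had an unadjusted p under 0.05, higher. Deviations of same-numbered libraries correlated at 0.073 across genes. With 2 libraries per group, this value cannot tell whether same-numbered libraries share more than a number. In Z-linked genes they were unlike. The median log2 deviation was -0.24 in exposed replicate 1 and 0.27 in control replicate 1. It was 0.28 in exposed replicate 2 and -0.28 in control replicate 2. With library totals, 3 members were higher and 2 lower without overlap, and the share of all genes is not given for that scaling. The log2 ratio between the controls was then -2.43 for cartilage collagens, -2.47 for other cartilage matrix genes, 0.33 for fibrillar, 0.72 for basement membrane zone, 0.45 for beaded filament and FACIT, and -0.60 for transmembrane and other collagens. With RLE it was -2.52, -2.55, 0.24 and 0.37 for cartilage collagens, other cartilage matrix, fibrillar, and beaded filament and FACIT. Class medians of the fold change kept their sign in all fits with 4 libraries. They rose to 0.81 (limma-voom) and 0.82 (block) for cartilage collagens and to 0.70 and 0.69 for other cartilage matrix genes, and with library totals were 0.010 for fibrillar, 0.023 for beaded filament and FACIT and 0.11 for basement membrane zone collagens. A mean of 0.5 or 5 CPM gave 49 or 43 members.

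Leaving out 1 library at a time moved the class medians from -0.40 to 2.09 (cartilage collagens), -0.49 to 1.97 (other cartilage matrix), -0.014 to 0.25 (fibrillar), -0.10 to 0.53 (basement membrane zone), -0.16 to 0.24 (beaded filament and FACIT) and 0.094 to 0.87 (transmembrane and other). Members with an unadjusted p under 0.05 numbered 0 to 19 higher and 0 to 2 lower. Of the 30 members for which these fits were tabulated, the log2 fold change turned for 22. It ranged from -0.42 to 1.77 for COL2A1, -0.22 to 2.09 for COL9A1, -0.30 to 2.19 for COL9A3, -0.40 to 2.18 for COL11A1, -1.34 to 0.28 for COL10A1, -0.62 to 2.13 for ACAN, -0.48 to 3.56 for MATN1, -0.026 to 0.26 for COMP and -0.56 to 1.74 for CHAD. It ranged from -0.54 to 0.64 for COL3A1, -0.27 to 0.29 for COL1A2, -0.74 to 0.25 for COL1A1, -0.10 to 0.53 for COL4A1, -0.15 to 0.58 for COL15A1, -0.14 to 0.65 for COL4A2, -0.016 to 0.66 for COL4A6, -0.081 to 0.44 for COL6A3, -0.31 to 0.28 for COL6A2, -0.16 to 0.24 for COL6A1, -0.015 to 1.15 for COL8A2, -0.60 to 0.66 for COL28A1 and -1.25 to 0.87 for COL23A1. It kept its sign but moved for CILP (0.13 to 0.65), COL5A1 (0.13 to 0.29), COL7A1 (-0.42 to -0.070), COL8A1 (0.30 to 0.95), COL12A1 (0.025 to 1.07), COL13A1 (0.078 to 0.61), COL17A1 (0.20 to 0.62) and COL26A1 (0.094 to 1.21). The cause was not tested. Depth limits COL10A1, COL25A1 and COL19A1, with at most 86 reads in a library.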

Other observations

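Some collagen genes lie next to each other in the gene order of the RefSeq table, and neighbours did not always share the order of libraries. COL4A1 and COL4A2 had log2 ratios of control replicate 1 to control replicate 2 of 0.61 and 0.77, COL4A5 and COL4A6 had 0.65 and 0.65, and COL6A1 and COL6A2 had 0.38 and 0.57. COL5A2 and COL3A1, which are also neighbours, had -0.031 and 1.15. COL9A1 and its neighbour COL19A1 had -2.33 and 1.27, on 18645 and 86640 reads of COL9A1 and 86 and 28 reads of COL19A1.

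Chains that form a common trimer differed in how steady their read ratio was. COL4A1 had 2.85 and 2.54 reads per COL4A2 read in exposed replicates 1 and 2 and 2.64 and 2.95 in the controls. COL9A1 had 2.99 and 2.53 reads per COL9A3 read against 2.88 and 2.55. COL9A1 had 6.22 and 6.92 reads per COL9A2 read against 8.14 and 5.84. COL1A1 had 0.678 and 0.641 reads per COL1A2 read in the exposed libraries and 0.907 and 0.673 in control replicates 1 and 2, so the COL9A2 and COL1A2 ratios were highest in control replicate 1. No test was made of these ratios.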
